A study of Mus musculus with 4 samples.

Results

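The 10 genes described here encode contractile proteins of smooth muscle (Acta2, Tagln and Cnn1) and of the sarcomere, the contractile unit of heart and skeletal muscle (Tnni1, Tnnt2, Tnnc1, Actc1, Myl4, Myl7 and Myh6). They were chosen by gene symbol, with earlier results of these data known. Every probe set that carries 1 of these symbols as its single symbol in the array platform's annotation was taken, which gave 12 of the 12422 probe sets tested, with 2 each for Actc1 and Myl4 and 1 for each other gene. A probe set is a group of short oligonucleotides on the array that together report 1 transcript or a group of similar ones.

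The arrays were hybridised with RNA of mouse cells grown from an embryonic stem cell line in which human CD4 marks cells that express Scl, the blood transcription factor encoded by Tal1. The line was kept on inactivated STO cells, a mouse fibroblast line, until 2 days before differentiation. By title the groups are Hemangioblast (2 arrays) and hCD4 (2 arrays), both from this line. The study text describes cells sorted from embryoid bodies after 2.75 days of culture by Flk-1 (a receptor for VEGF, gene Kdr) together with Scl, and it describes blast colonies that were picked after replating and pooled. The source labels name hemangioblasts and hCD4 ES cells, so the labels do not settle which cells each group holds, and only the titles are used. Nothing in the labels names separate cultures for the arrays of a group, so the p-values reflect how far these particular arrays differ, and that spread may be only technical. In a bulk sample, fewer cells of a type and less RNA per cell cannot be told apart.

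Both sorting markers were lower on the Hemangioblast arrays by value. Kdr was at 648 and 570.0 on the Hemangioblast arrays, against 1625 and 2003 on the hCD4 arrays (log2 change -1.55, SE 0.168, adjusted p = 0.00158 by limma). Tal1 was at 391 and 333 on the Hemangioblast arrays, against 597 and 696 on the hCD4 arrays (adjusted p = 0.0513). The median deposited intensity of an array lay between 165 and 197, and replicate arrays correlated across probe sets with r of 0.961 (Hemangioblast) and 0.963 (hCD4).

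Muscle contracts when myosin heads pull on actin filaments. In the sarcomere the troponin complex gates this by calcium, with troponin C binding calcium, troponin I blocking contraction at rest and troponin T anchoring the complex to tropomyosin. In smooth muscle, calcium acts instead through phosphorylation of the myosin regulatory light chain, and calponin and transgelin bind the actin filaments. Mesoderm cells that express Flk-1 are known to form blood and endothelium and, in some conditions, smooth and heart muscle. Several muscle genes are also active in cells that are not muscle: Acta2 and Tagln in fibroblasts and other stromal cells, and many sarcomere genes in early heart mesoderm.

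The comparison asks which of these genes differ between the populations. Acta2 and Tnni1 were higher on the Hemangioblast arrays and passed the test. Tagln, Myl7 and Cnn1 had lower values there and did not pass. The remaining genes had smaller log2 changes and did not pass either, which does not show that they were the same in both groups. All values below are scaled intensities, that is, the deposited intensities after each array was brought to a common trimmed mean. Log2 changes are Hemangioblast minus hCD4, taken on log2 of the scaled intensity plus 16, with their standard error (SE), and they understate the change of dim probe sets. The test was limma over all 12422 probe sets with Benjamini-Hochberg adjustment, and a probe set passed at an adjusted p below 0.05.

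Of the 12 muscle probe sets, 2 passed and both were higher, while over all probe sets 4.48% passed (2.91% higher and 1.56% lower). For 6 of the 12 (3 higher and 3 lower), or 50%, both Hemangioblast arrays lay on the same side of both hCD4 arrays. This held for 44.4% of all probe sets (24.8% higher and 19.7% lower), so non-overlap alone was about as common as elsewhere on the array. At an unadjusted p under 0.05 there were 4 of 12, against 16.3% of all. The median log2 change of the 12 was 0.07, and that of all probe sets was 0.04. Over all probe sets 362 were higher and 194 lower, and without scaling between arrays these counts were 222 and 50.

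**Figure D1:**
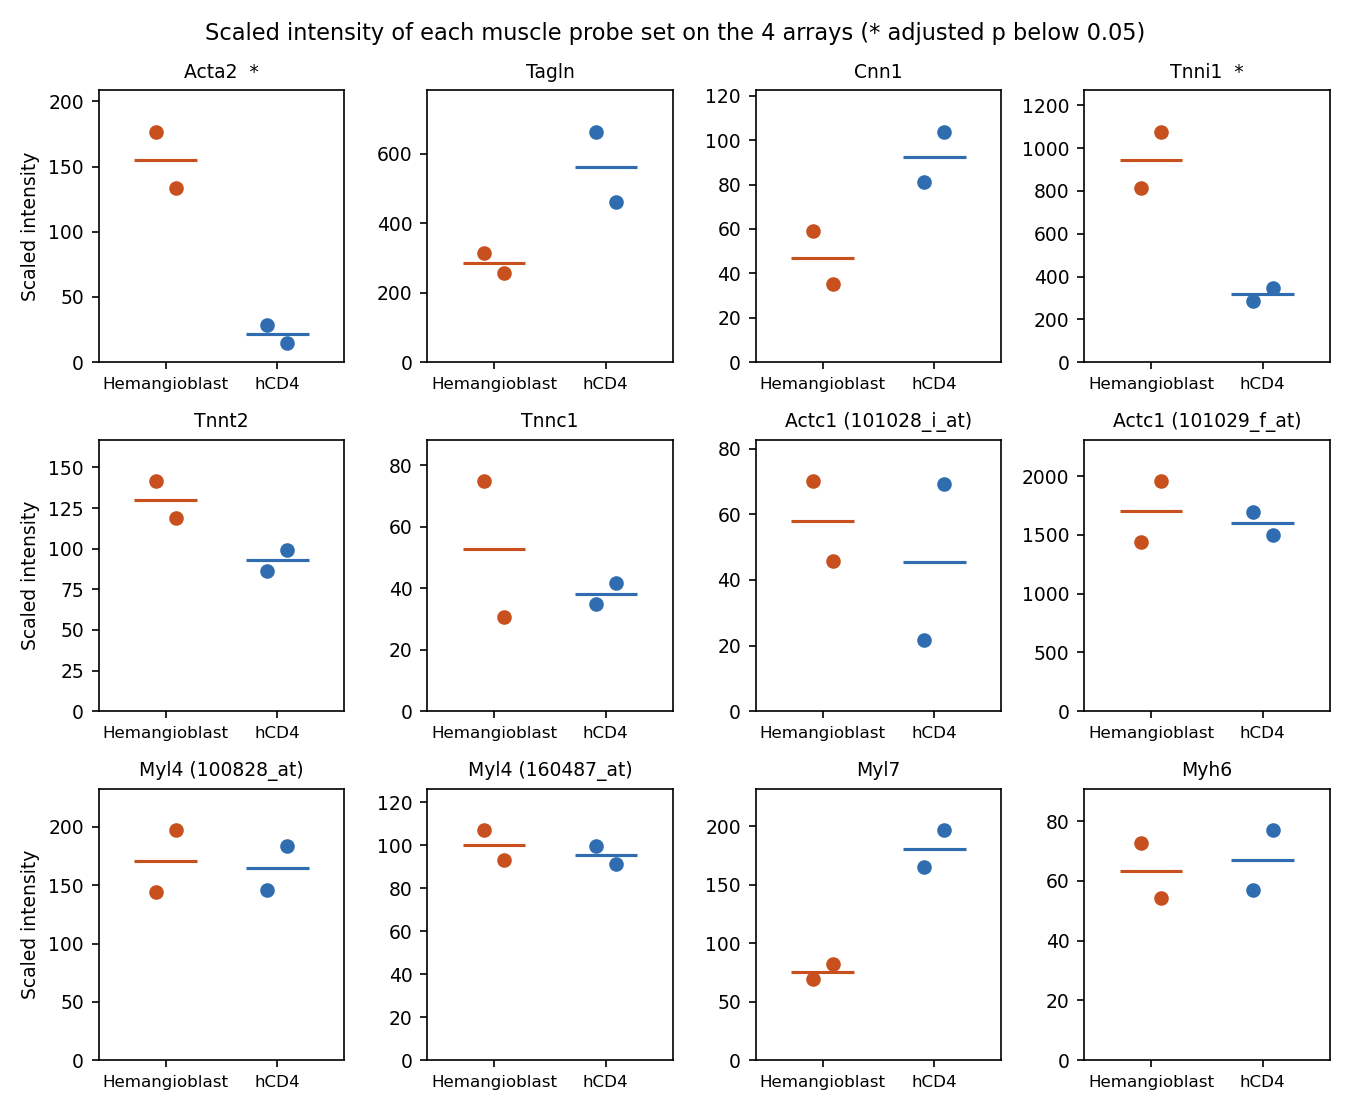
Scaled intensity (vertical axes, each starting at 0) of the 12 muscle probe sets on the 2 Hemangioblast arrays (orange) and the 2 hCD4 arrays (blue). Points are arrays, horizontal lines are means of 2, and an asterisk marks the probe sets with an adjusted p below 0.05, Acta2 and Tnni1.

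Promoters of 4 of the genes are shown, those of Acta2 and Tnni1 because they passed, that of Myl7 because it had the lowest log2 change, and that of Actc1 as a muscle actin that did not pass. Each line gives the 200 bases before the annotated start, 5′ to 3′ on the gene's strand, from RefSeq on build GRCm38.p6. Capitals mark the CArG box, the motif of serum response factor, which drives many muscle genes: CC and GG around a core of A and T bases. Matches with 1 G or C in the core are in capitals too. The Acta2 line is chr19:34255374-34255573 (minus strand), the Tnni1 line chr1:135799221-135799420 (plus strand), the Actc1 line chr2:114052876-114053075 (minus strand) and the Myl7 line chr11:5898783-5898982 (minus strand).
Acta2: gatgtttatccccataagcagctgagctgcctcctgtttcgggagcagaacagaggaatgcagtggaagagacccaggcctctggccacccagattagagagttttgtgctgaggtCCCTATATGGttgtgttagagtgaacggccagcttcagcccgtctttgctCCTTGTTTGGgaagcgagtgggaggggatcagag
Tnni1: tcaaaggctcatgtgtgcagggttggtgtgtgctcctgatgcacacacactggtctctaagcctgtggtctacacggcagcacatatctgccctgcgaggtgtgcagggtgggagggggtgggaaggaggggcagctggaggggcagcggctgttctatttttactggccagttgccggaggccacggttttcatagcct
Actc1: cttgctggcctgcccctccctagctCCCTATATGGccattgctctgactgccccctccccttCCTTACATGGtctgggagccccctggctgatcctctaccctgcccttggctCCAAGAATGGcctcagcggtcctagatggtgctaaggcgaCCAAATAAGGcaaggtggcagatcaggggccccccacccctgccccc
Myl7: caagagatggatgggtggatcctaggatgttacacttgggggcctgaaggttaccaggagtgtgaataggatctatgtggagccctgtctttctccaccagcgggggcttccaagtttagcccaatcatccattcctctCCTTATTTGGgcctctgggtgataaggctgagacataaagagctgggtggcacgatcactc
In all, 9 of the 10 genes matched the RefSeq table, with 11 windows of 300 bases (250 before and 50 after a start). Tagln had no entry, so its promoter was not searched. Tnni1 and Tnnt2 have 2 windows each, and those of Tnni1 overlap. The exact CArG box, which reads as itself on both strands, was found in 2 of 11 windows, those of Actc1 and Myl7, and in 1.63% of 32851 windows in the table. The form with 1 G or C in the core was found in 3 of 11 (Acta2, Actc1 and Myh6) and in 8.50% of all. The MCAT element CATTCC, searched on both strands, was in 5 of 11 and in 14.7% of all, and the MEF2 site was in 0 of 11 and in 3.19% of all. These matches are letters in a window and are not measured binding sites. The Tnni1 windows hold neither form of the box. Whether these boxes bear on the differences between the groups was not tested.

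Among the smooth muscle genes, Acta2 stood apart from the others. Acta2 encodes smooth muscle alpha-actin, the actin of contractile smooth muscle cells and of activated fibroblasts. Its scaled intensity was 177 and 134 on the Hemangioblast arrays, against 28.8 and 14.9 on the hCD4 arrays. The groups were well separated, and the lower Hemangioblast array was above the higher hCD4 array. The Hemangioblast mean was 155 ± 30.3 and the hCD4 mean 21.9 ± 9.78 (SD, n = 2 each). The log2 change was 2.19 (SE 0.353, adjusted p = 0.0124), and 0.837% of all probe sets had a change at least as high. Over the 4 pairs of a Hemangioblast with an hCD4 array the log2 difference ran from 1.74 to 2.64, so Acta2 differed at least 2-fold in every pair, as did 2.89% of all probe sets. No detection call was used here, the hCD4 values lie near the added constant of 16, and the log2 change was 2.83 with a constant of 1 and 1.35 with 64. All 4 arrays lay below the array median for Acta2, and it was not tested when probe sets below the median level were left out. Without Hemangioblast replicate 1 the adjusted p was 0.0590 and without hCD4 replicate 2 it was 0.0708, so this call rests on both arrays.

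Tagln, which encodes the actin-binding protein transgelin (SM22-alpha), had values in the other direction. It was at 314 and 258 on the Hemangioblast arrays, against 663 and 462 on the hCD4 arrays. The groups did not overlap, but hCD4 replicate 1 was well above hCD4 replicate 2. The Hemangioblast mean was 286 ± 39.7 and the hCD4 mean 563 ± 142 (SD, n = 2 each). The log2 change was -0.92 (SE 0.228, adjusted p = 0.0656) and did not pass. Its adjusted p was 0.0462 with an added constant of 1 and 0.0215 when probe sets below the median level were left out, and it reached 0.311 without hCD4 replicate 1. Only 2.10% of all probe sets had a change at least as low.

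Cnn1, which encodes calponin 1, an actin-binding protein that restrains the myosin motor in smooth muscle, was at 58.9 and 35.2 on the Hemangioblast arrays, against 81.1 and 104 on the hCD4 arrays. These values were also lower on both Hemangioblast arrays, and all 4 arrays lay below the array median. The log2 change was -0.80 (95% interval -1.60 to 0.0045, adjusted p = 0.309). The name of its probe set ends in s_at, the array maker's mark for probes shared by similar transcripts, so the signal may include other transcripts. Of the 3 smooth muscle genes, the value of 1 was higher and those of 2 were lower on the Hemangioblast arrays, under each of the 3 other scalings as well.

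Among the troponin genes, Tnni1 was higher on the Hemangioblast arrays. Tnni1 encodes the slow skeletal form of troponin I, which the embryonic heart also uses. It was at 815 and 1076 on the Hemangioblast arrays, against 287 and 346 on the hCD4 arrays. Both Hemangioblast arrays were above both hCD4 arrays by more than the gap between replicates. The Hemangioblast mean was 946 ± 184 and the hCD4 mean 317 ± 41.5 (SD, n = 2 each), a ratio of 2.99. The log2 change was 1.52 (SE 0.201, adjusted p = 0.00436), with 1.2 to 1.85 over the 4 pairs, and 1.82% of all probe sets changed at least as much upward. The call held without each single array (adjusted p from 0.00432 to 0.0440) and was lost when the variance was fitted without an intensity trend (0.0530).

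The partners of troponin I in the complex did not pass. Tnnt2, which encodes cardiac troponin T and is an early marker of heart muscle, was at 142 and 119 on the Hemangioblast arrays, against 86.5 and 99.3 on the hCD4 arrays. The groups did not overlap, but the gap between them was small (log2 change 0.42, 95% interval -0.24 to 1.09, adjusted p = 0.565). Tnnc1, which encodes the troponin C of slow skeletal and heart muscle, was at 74.9 and 30.7 on the Hemangioblast arrays, against 34.7 and 41.8 on the hCD4 arrays. Its high value on Hemangioblast replicate 1 was not shared by replicate 2, and the groups overlapped (log2 change 0.27, 95% interval -0.67 to 1.2, adjusted p = 0.844). All 4 arrays lay below the array median for both genes.

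The myosin genes gave no call. Myl7, which encodes the regulatory light chain of atrial myosin and is one of the first contractile genes of the heart tube, was at 69.7 and 81.9 on the Hemangioblast arrays, against 165 and 197 on the hCD4 arrays. The groups did not overlap and replicates lay close together, and 3 of the 4 arrays lay below the array median. The log2 change was -1.10 (SE 0.286, 95% interval -1.76 to -0.44, adjusted p = 0.0774), the ratio of the Hemangioblast to the hCD4 mean was 0.419, and 1.26% of all probe sets had a change at least as low. Its adjusted p stayed above 0.05 in each alternative that tested it, from 0.0515 with quantile normalization to 0.375 without hCD4 replicate 2.

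Myl4, the essential light chain of atrial and embryonic muscle, was measured by 2 probe sets that gave the same picture. The first was at 145 and 197 on the Hemangioblast arrays, against 146 and 184 on the hCD4 arrays (log2 change 0.04, 95% interval -0.60 to 0.67, adjusted p = 0.979). The second was at 107 and 93.1 on the Hemangioblast arrays, against 99.7 and 91.4 on the hCD4 arrays (log2 change 0.06, 95% interval -0.62 to 0.73, adjusted p = 0.969). Both overlapped between groups, and both changes were below 0 with median scaling (-0.04 and -0.02). The first lay below the array median on 3 of the 4 arrays and the second on all 4. Myh6, the alpha heavy chain of heart myosin, was at 72.6 and 54.2 on the Hemangioblast arrays, against 56.9 and 77.1 on the hCD4 arrays. Its groups overlapped (log2 change -0.06, 95% interval -0.84 to 0.71, adjusted p = 0.969), and all 4 arrays lay below the array median.

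Actc1, the actin of heart muscle and of embryonic skeletal muscle, was also measured by 2 probe sets, which differ in kind. The name of one ends in f_at, the array maker's mark for probes that match a family of similar sequences, and the actins are such a family. It was at 1442 and 1959 on the Hemangioblast arrays, against 1695 and 1501 on the hCD4 arrays. The groups overlapped (log2 change 0.08, 95% interval -0.34 to 0.49, adjusted p = 0.914), and the change was -0.01 with median scaling. The other ends in i_at, the mark for a probe set with fewer probes than usual, and was at 70.1 and 45.6 on the Hemangioblast arrays, against 21.8 and 69.3 on the hCD4 arrays. Here hCD4 replicates 1 and 2 differed more from each other than the group means did (log2 change 0.36, 95% interval -0.68 to 1.40, adjusted p = 0.799). All 4 arrays lay below the array median for this probe set.

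**Figure D2:**
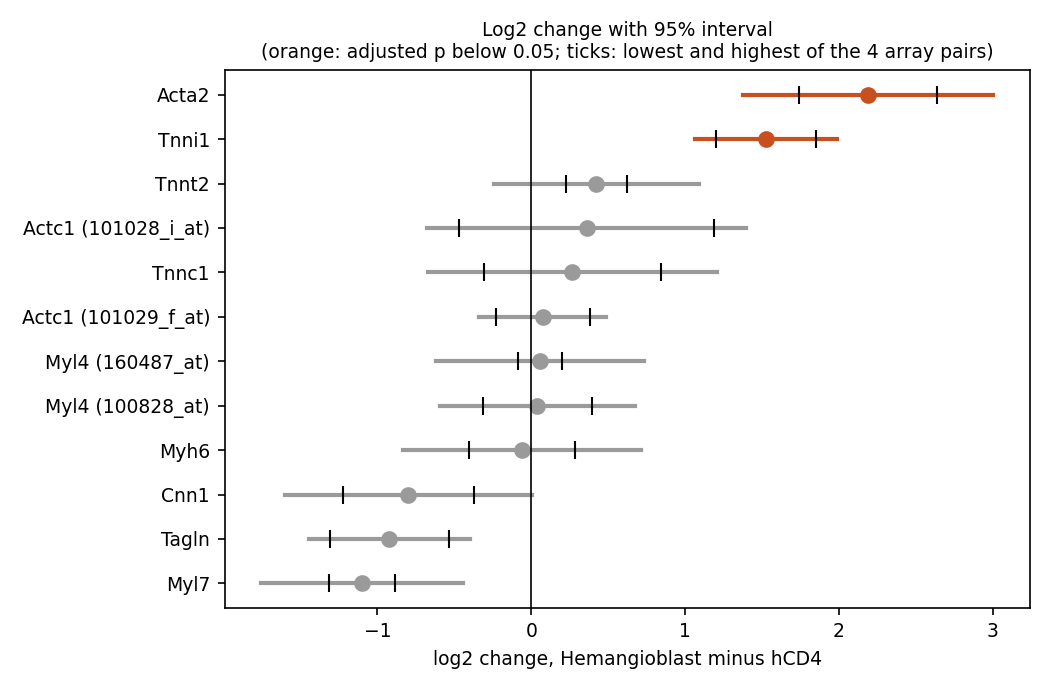
Log2 change (horizontal axis, Hemangioblast minus hCD4) of each muscle probe set, with its 95% interval as a line and the lowest and highest of the 4 array pairs as ticks. Acta2 (2.19) and Tnni1 (1.52), in orange, passed an adjusted p of 0.05, and the intervals of Tagln and Myl7 lie below 0 although their adjusted p-values did not pass.

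**Figure D3:**
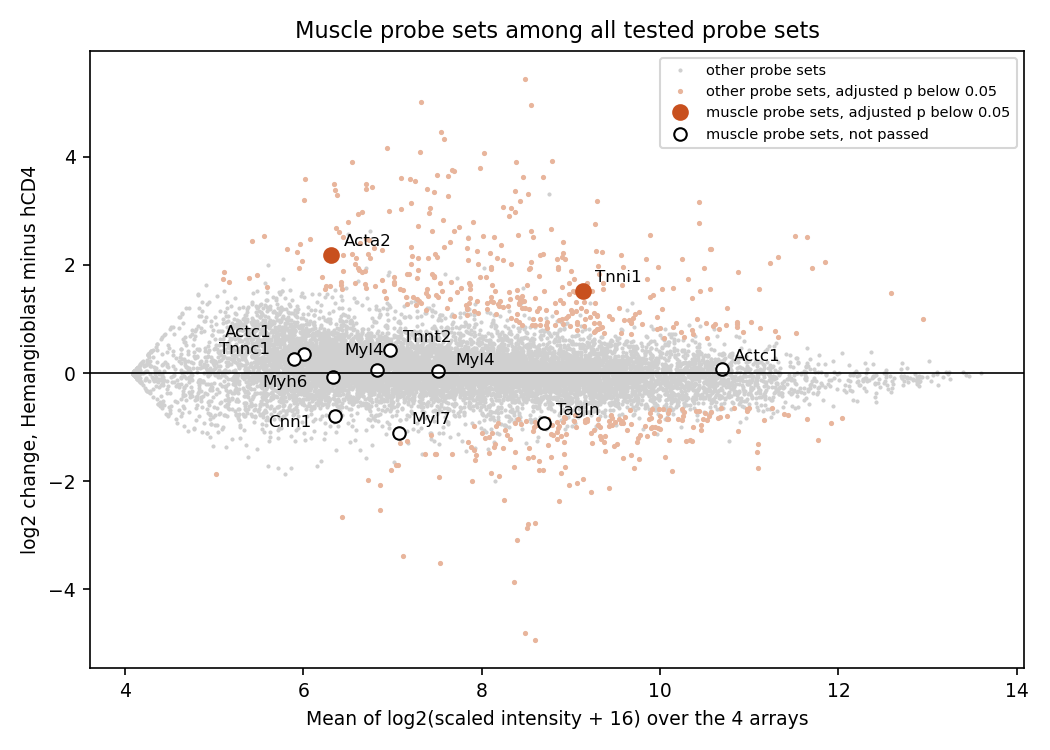
Log2 change (vertical axis, Hemangioblast minus hCD4) against the mean of log2 of the scaled intensity plus 16 over the 4 arrays (horizontal axis) for all 12422 probe sets, with the muscle probe sets as large circles. Acta2 and Tnni1 are filled, the 10 that did not pass are open, and 7 of these 10 lie between -0.06 and 0.42.

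Further genes of the same contractile systems were for the most part not called. In these lists a gene is represented by its probe set with the highest mean, and 5.36% of all 8251 genes passed (3.39% higher and 1.96% lower). All the further lists, like the members, were chosen with earlier results of these data known. Of 14 measured smooth muscle genes outside the members, 0 rose and 0 fell by limma with the brightest probe set, and 1 had an unadjusted p under 0.05 (median log2 change 0.02, with 0.02 over all genes). That gene was Vcl, which encodes the adhesion protein vinculin, at 1691 and 2490 on the Hemangioblast arrays, against 1353 and 992 on the hCD4 arrays (log2 change 0.82, SE 0.223, adjusted p = 0.0916). The other Vcl probe set overlapped between groups (log2 change 0.72, adjusted p = 0.423). Csrp1, which encodes a LIM-domain protein of smooth muscle, did not pass by its brightest probe set (adjusted p = 0.507) but passed by another, at 603 and 547 on the Hemangioblast arrays, against 340.1 and 246 on the hCD4 arrays (log2 change 0.95, SE 0.212, adjusted p = 0.0448). The name of the Csrp1 probe set that passed ends in s_at, so its signal may include other transcripts, and the brightest one overlapped between groups. Myh11, the smooth muscle myosin heavy chain and a defining marker of that cell type, was at 120 and 108 on the Hemangioblast arrays, against 90.8 and 90.1 on the hCD4 arrays (adjusted p = 0.729). Smtn, which encodes smoothelin of contractile smooth muscle, was below 6 on all 4 arrays, and Des, the muscle intermediate filament desmin, was at 284 and 413 on the Hemangioblast arrays, against 356 and 477 on the hCD4 arrays (adjusted p = 0.717). Myh11, Smtn and Des were chosen after their values were seen.

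Of 30 measured sarcomere genes outside the members, 1 rose and 0 fell, and 4 had an unadjusted p under 0.05 (median log2 change 0.02). The one that rose was Myom1, which encodes myomesin of the sarcomere's M band, at 60.4 and 62.8 on the Hemangioblast arrays, against 10.4 and 3.71 on the hCD4 arrays (log2 change 1.77, SE 0.352, adjusted p = 0.0293). Its hCD4 values are below the added constant of 16, and the list had 0 calls when any single array was left out. Csrp3, a cofactor at the Z disc of heart and skeletal muscle, had the lowest change, at 1.07 and 32.0 on the Hemangioblast arrays, against 46.0 and 135 on the hCD4 arrays (log2 change -1.76, SE 0.589, adjusted p = 0.167). Pdlim3, another Z disc gene, was at 57.4 and 45.8 on the Hemangioblast arrays, against 140 and 108 on the hCD4 arrays (adjusted p = 0.130). Myh2, a myosin heavy chain gene, was higher, at 46.3 and 24.1 on the Hemangioblast arrays, against 4.87 and 8.37 on the hCD4 arrays. Its log2 change was 1.15 (SE 0.377, adjusted p = 0.158), and its hCD4 values are also below the added constant of 16. Csrp3, Pdlim3 and Myh2 did not pass, although their groups did not overlap. Of 17 measured genes of calcium handling, conduction and energy supply in heart muscle, 0 rose and 0 fell by limma, and 3 had an unadjusted p under 0.05. Gja1, the gap junction gene connexin 43, came closest, at 1627 and 764 on the Hemangioblast arrays, against 2889 and 2511 on the hCD4 arrays (adjusted p = 0.0595). The name of that probe set ends in f_at, and the other Gja1 probe set overlapped between groups (log2 change -0.897, adjusted p = 0.396). The rest of the 3, Mb and Slc8a1, were higher (log2 changes 1.195 and 0.611, adjusted p = 0.123 and 0.199). The hCD4 values of Mb, 0.936 and 1.94, are below the added constant of 16. No other probe set of Mb or Slc8a1 passed. Of 11 measured skeletal muscle regulators and receptors, 0 rose and 0 fell by limma, and 1 had an unadjusted p under 0.05.

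The nonmuscle counterparts of these proteins, which cells outside muscle use for shape and movement, included a call in each direction. Of 14 measured, 1 rose and 1 fell, and 5 had an unadjusted p under 0.05. Myh9, a nonmuscle myosin heavy chain, was at 2227 and 1945 on the Hemangioblast arrays, against 1134 and 1116 on the hCD4 arrays (log2 change 0.88, SE 0.146, adjusted p = 0.0138). Another probe set of Myh9 had a log2 change of 0.77 (adjusted p = 0.0555). Actn1, which encodes alpha-actinin 1, was at 2060 and 1363 on the Hemangioblast arrays, against 3130 and 3046 on the hCD4 arrays (log2 change -0.88, SE 0.198, adjusted p = 0.0485), while its other probe sets gave -0.22 and 0.03 (adjusted p = 0.777 and 0.989). The name of the Actn1 probe set that passed ends in f_at. Tagln2, the paralog of Tagln in many cell types, was at 3011 and 3049 on the Hemangioblast arrays, against 2059 and 2062 on the hCD4 arrays (adjusted p = 0.0605), and Cnn3, a paralog of Cnn1, was at 1374 and 943 on the Hemangioblast arrays, against 2086 and 1782 on the hCD4 arrays (adjusted p = 0.0838). The name of the Cnn3 probe set also ends in f_at. With median scaling, without scaling and without hCD4 replicate 2 this list had 0 calls, it had 1 without Hemangioblast replicate 2 or hCD4 replicate 1, and it had 3 without Hemangioblast replicate 1.

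Of 26 measured regulators of heart and smooth muscle, 1 fell and 0 rose by the brightest probe set of each gene, and 6 had an unadjusted p under 0.05. Gata6, a transcription factor of heart, smooth muscle and endoderm, was at 256 and 242 on the Hemangioblast arrays, against 495 and 454 on the hCD4 arrays (log2 change -0.89, SE 0.191, adjusted p = 0.0398). Its other probe sets had log2 changes of -0.65 and -0.44 (adjusted p = 0.628 and 0.644), and the list had 0 calls without Hemangioblast replicate 1 and without either hCD4 array. Hand1, a factor of extraembryonic and heart mesoderm, gave 1.30 by one probe set (adjusted p = 0.0721) and 1.29 by another that passed (adjusted p = 0.0224). The probe set that passed was at 1193 and 751 on the Hemangioblast arrays, against 338 and 424 on the hCD4 arrays. Mef2c, a factor of heart, skeletal muscle and some blood lineages, has 4 probe sets with log2 changes between 0.48 and 1.78. One of them passed, at 203 and 248 on the Hemangioblast arrays, against 51.7 and 56.6 on the hCD4 arrays (log2 change 1.78, SE 0.288, adjusted p = 0.0126), while the brightest, at 419 and 428 on the Hemangioblast arrays, against 352 and 255 on the hCD4 arrays, did not (adjusted p = 0.330). Gata4, Nkx2-5 and Hand2, further regulators of heart formation, had log2 changes of -0.24, -0.02 and -0.16 (adjusted p = 0.676, 0.993 and 0.888). Srf and Myocd were not analysed here.

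In a list of TGF-beta, PDGF and BMP pathway genes, 2 of 21 measured rose and 3 fell, none of them a PDGF gene. This list had 1 call without hCD4 replicate 1, 0 without hCD4 replicate 2, 0 without an intensity trend and 1 without scaling. Tgfb1, a ligand that induces Acta2 and Tagln in many cell types, was at 1028 and 1449 on the Hemangioblast arrays, against 554 and 567 on the hCD4 arrays (log2 change 1.10, SE 0.193, adjusted p = 0.0169). The other passing genes, Id2, Id3, Id1 and Smad7, are targets of BMP signalling or its inhibitors and went in both directions. Id2 also rose (1.45, adjusted p = 0.0156), while Id3, Id1 and Smad7 fell (-1.01, -0.99 and -1.0, adjusted p = 0.0124, 0.0164 and 0.0168).

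Genes of other cell types that use some of these contractile proteins, or that the samples could hold, also differed between the groups. In the fibroblast and stroma list, 2 of 23 measured genes rose and 1 fell (median log2 change 0.02), and the summed scaled intensity of the list was 8812 and 8892 on the Hemangioblast arrays, against 11317 and 10874 on the hCD4 arrays. Fn1 carried that difference: without it, a sum chosen after the data were seen, the other 22 genes summed to 6274 and 6890 on the Hemangioblast arrays, against 6052 and 5463 on the hCD4 arrays. The list had 1 call without Hemangioblast replicate 2, without hCD4 replicate 1 or without hCD4 replicate 2, and 0 without an intensity trend. Col3a1, a fibrillar collagen, was at 268 and 349 on the Hemangioblast arrays, against 103 and 115 on the hCD4 arrays (log2 change 1.37, SE 0.256, adjusted p = 0.0226), though its other probe sets did not pass (adjusted p = 0.633 and 0.483). Tgfbi, a matrix protein induced by TGF-beta, was at 361 and 390 on the Hemangioblast arrays, against 111 and 172 on the hCD4 arrays (log2 change 1.34, SE 0.260, adjusted p = 0.0263), and another probe set did not pass (adjusted p = 0.923). Fn1, which encodes fibronectin, was at 2538 and 2002 on the Hemangioblast arrays, against 5265 and 5411 on the hCD4 arrays (log2 change -1.24, SE 0.157, adjusted p = 0.00354).

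Blood and pluripotency genes also differed between the groups. Of 16 measured myeloid genes 12 rose and 0 fell, and of 11 erythroid genes 7 rose and 0 fell. The erythroid count was 4 without hCD4 replicate 1, without hCD4 replicate 2 or without an intensity trend. The summed scaled intensity of the myeloid list was 13561 and 14484 on the Hemangioblast arrays, against 1755 and 2065 on the hCD4 arrays, and that of the erythroid list was 38758 and 41570.5 on the Hemangioblast arrays, against 13912 and 14758 on the hCD4 arrays. Of 13 pluripotency genes 0 rose and 3 fell, with a summed intensity of 5301 and 5443 on the Hemangioblast arrays, against 8675 and 6897 on the hCD4 arrays. Of 13 endothelial genes 2 rose and 1 fell, with sums of 5979 and 5517 on the Hemangioblast arrays, against 5726 and 6570 on the hCD4 arrays. No gene of these lists was at the lowest deposited value of 1 on all 4 arrays. The part of these cell types in the values of Acta2, Tnni1, Tagln and Myl7 was not tested.

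**Figure D4:**
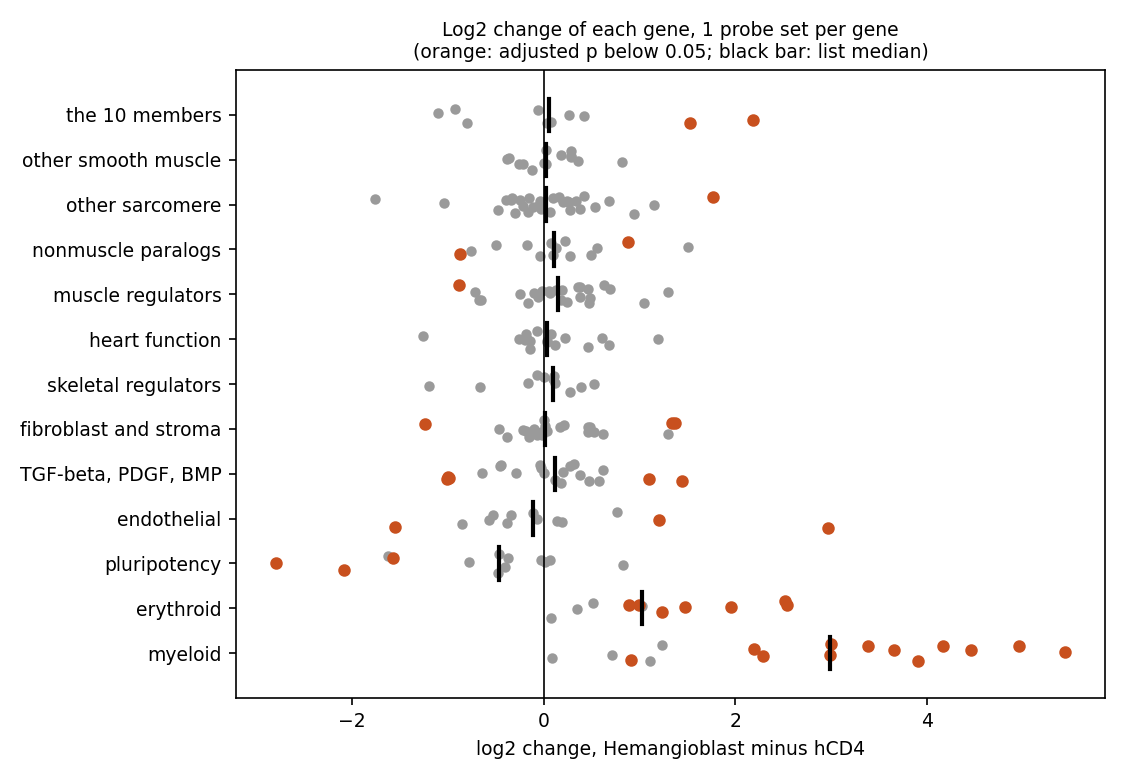
Log2 change (horizontal axis, Hemangioblast minus hCD4) of each measured gene in 13 lists, with genes past an adjusted p of 0.05 in orange and list medians as black bars. The muscle lists centre near 0, with medians between 0.02 and 0.16, while the myeloid and erythroid medians are 2.99 and 1.03 and the pluripotency median is -0.46.

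**Figure D5:**
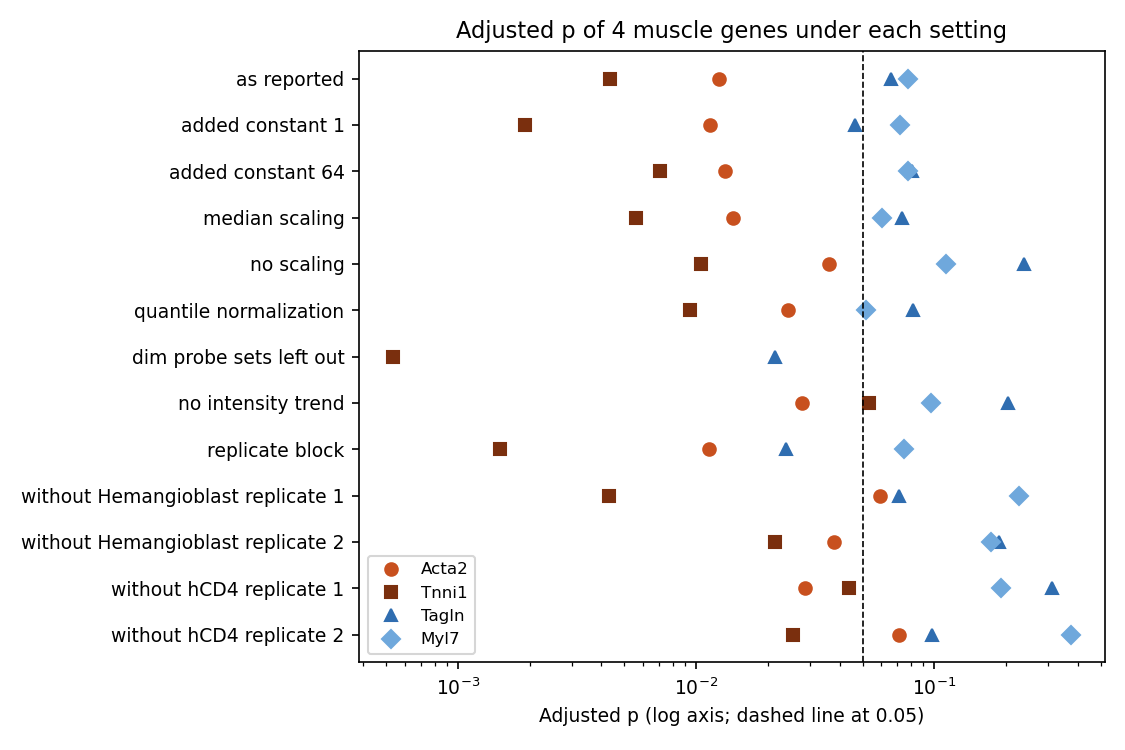
Adjusted p (horizontal log axis, dashed line at 0.05) of Acta2, Tnni1, Tagln and Myl7 as reported and under each alternative setting. Tnni1 is left of the line in all settings except without an intensity trend, Acta2 in all that tested it except without Hemangioblast replicate 1 and without hCD4 replicate 2, and Myl7 in none.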

How the data were processed

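RNA was extracted with TRIzol and 20 ug was labelled with biotin, per the labels. Each array's deposited column holds a linear intensity for every probe set. The software, background correction and scaling used for it were not given in the sources used here. All 4 columns were used. The 66 control probe sets among 12488 were left out. Each array was scaled to the mean of the arrays' trimmed means (2% trimmed at each end, factors 0.939, 1.05, 0.936 and 1.09), and log2 of the value plus 16 was fitted with limma 3.58.1 in R 4.3.3 (intensity trend, no block), two-sided, with Benjamini-Hochberg adjustment over 12422 probe sets. Residual degrees of freedom were 2, and the prior added 6.18. An exact permutation test of 2 against 2 cannot go below p = 0.333, so none was used. Precision is limited by having 4 arrays, and the median SE of a log2 change was 0.271.

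Genes were named from the platform annotation, with 10833 probe sets of 1 symbol, 396 of several and 1193 of none, and no member symbol occurs on a probe set with several. Named are all member probe sets and Srf, Myocd, Mef2c, Gata4, Gata6, Nkx2-5, Hand1, Hand2, Kdr and Tal1. From some lists, genes among the 6 with the smallest adjusted p are named too. Not all of those 6 are named, and from other lists none was taken this way. The 12 further lists hold 245 genes, of which 209 were measured, 27 rose and 10 fell. The members and lists were chosen with earlier results of these data known. The fit was tested on simulated data in which only probe sets above the median level were changed. Recovery of changes in dim probe sets, Acta2 among them, was not tested. Plots used matplotlib 3.10.9 (Python 3.11.15).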

Additional observations from a re-analysis of the deposited data

How the results depend on the processing

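Values were recomputed with 1 or 64 as the added constant, with median, quantile or no scaling, and by leaving out probe sets below the median level, dropping the intensity trend, using the replicate number as a block, or leaving out each array. Over 135 recomputed log2 changes of the member probe sets, 115 kept their direction and side of the threshold, 3 lost the call, 3 gained it and 14 changed sign, all of these 14 with an adjusted p of 0.807 or more. Calls over all probe sets numbered 556 as reported, 272 without scaling, 220 without an intensity trend and 219 to 517 with 1 array left out. Member calls numbered 2 as reported, 1 without an intensity trend and 1 to 2 with 1 array left out. Member probe sets without overlap numbered 6 as reported, 2 with dim ones left out (3 of 12 remained in the test) and 7 to 11 with 1 array left out, where a lone array overlaps less easily. The lone array in those fits is assumed to vary like the other group.

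Acta2 lost its call without Hemangioblast replicate 1 or without hCD4 replicate 2 (log2 changes 2.0 and 1.93), and Tnni1 without an intensity trend (adjusted p = 0.0530). Tagln passed with a constant of 1, with dim probe sets left out and with the replicate block (adjusted p = 0.0462, 0.0215 and 0.0239). The causes were not tested. Signs changed for the Myl4 probe sets with median scaling (-0.040 and -0.017) and quantile normalization (-0.066 and -0.075), and for the f_at probe set of Actc1 with median scaling (-0.011). With 1 array left out the Myl4 changes ran from -0.17 to 0.24 and from -0.031 to 0.14, those of Actc1 from -0.14 to 0.29 (f_at) and from -0.23 to 0.95 (i_at), those of Tnnc1 from -0.21 to 0.75 and those of Myh6 from -0.24 to 0.11.

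Genes called in the 12 further lists numbered 37 as reported, 24 without scaling, 19 without an intensity trend and 22 to 37 with 1 array left out. Among smooth muscle genes (0 as reported) 1 was called with dim probe sets left out or the probe set with the smallest p, and 0 to 1 with 1 array left out. Among sarcomere genes (1) the count was 0 without scaling, with dim probe sets left out and without any single array, and 2 with the replicate block. Among nonmuscle genes (2) it was 1 with a constant of 64, 0 with median scaling, no scaling or no trend, 4 with dim probe sets left out or the block, and 0 to 3 with 1 array left out. Among regulators (1) it was 2 with a constant of 1 or dim probe sets left out, 0 without scaling or trend, 3 with the smallest-p probe set, and 0 to 1 with 1 array left out. Among heart genes (0) it was 1 with a constant of 1, dim probe sets left out or the block, and 0 to 1 with 1 array left out. Among pluripotency genes (3) it was 1 without an intensity trend.

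The 2 numbers shared by the groups do not pair the arrays in the labels, and the deviations of same-numbered arrays correlated at -0.00781 across probe sets. With the replicate block 710 probe sets passed, and of the member probe sets Acta2, Tnni1 and Tagln.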
